A study of Mus musculus with 18 samples.

Results

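The genes described here are 10 members of the claudin family, Cldn1 to Cldn8, Cldn10 and Cldn18, of 18193 genes tested on Affymetrix mouse arrays. They were chosen as the listed claudin genes with a probe set that carries no other gene symbol. A probe set is a group of short probes for 1 transcript, and 18 of the 45101 probe sets belonged to these 10 genes. Where a gene had several, the one with the highest mean was used and the others served as a check. The animals were B6C3F1/N mice, aged 5 to 6 weeks when the study began. The groups were lung of vehicle controls, spontaneous lung tumors, and lung tumors that arose under inhaled antimony trioxide (treated tumors). The series is titled as a study of alveolar bronchiolar carcinomas, and the exposure levels of the whole study were 0, 3, 10 and 30 mg per cubic metre, 6 hours a day and 5 days a week, for up to 105 weeks. The labels give no exposure level, sex or animal for a sample, so a p-value here reflects only how these samples vary, which may be technical. Per the labels, tumors were dissected away from the rest of the lung before freezing, and the control tissue is named only as lung.

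Each group had 6 arrays. Control lung 5, spontaneous tumor 5 and spontaneous tumor 6 stood apart, with a median correlation to the other arrays of 0.30 to 0.48, against 0.92 to 0.97 for the rest. They were left out, which leaves 5 control, 4 spontaneous tumor and 6 treated tumor arrays, and claudin calls that change with them are given with both sets. Alveolar type 2 cell markers, of which 10 were measured, were bright on every array. Their summed level on the log2 scale was 15.88 to 16.49 in control lung, 16.72 to 16.85 in spontaneous and 16.59 to 16.79 in treated tumors.

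Claudins are membrane proteins that join neighbouring cells at the tight junction, the uppermost contact of an epithelium. Some members seal the space between cells, while others form channels through which small ions or water pass. Each cell type carries its own set: in lung, alveolar cells use claudins 3, 4 and 18, airway cells add others, and blood vessels depend on claudin 5.

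In both kinds of tumor, the channel former Cldn2 rose about 23.4-fold and 23.2-fold against control lung, and Cldn5 and Cldn10 fell by between 10.6-fold and 18.2-fold. Cldn3 rose slightly in both, Cldn4 rose in treated tumors, and Cldn7 rose slightly in spontaneous tumors. A gene is said to have risen or fallen where its adjusted p was under 0.05, from limma with Benjamini-Hochberg adjustment over all 18193 genes. By this rule 5 of the 10 claudins were called in spontaneous tumors against control (3 higher, 2 lower), where 33.0% of all genes were called, 20.1% higher and 12.9% lower. In treated tumors against control 5 were also called (3 higher, 2 lower), where 38.8% of all genes were, 23.8% higher and 15% lower. Treated and spontaneous tumors are compared with the same control arrays, so the 2 comparisons are not independent. Between treated and spontaneous tumors 0 of the 10 were called by limma, with 1 at an unadjusted p under 0.05, where 0.0550% of all genes were called, 0.0330% higher and 0.0220% lower.

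The values of 2 groups did not overlap for 4 of the 10 claudins in spontaneous tumors against control (29.3% of all genes) and for 4 in treated tumors against control (24.5%). Between the tumor groups 0 of the 10 were without overlap (1.63%). The median log2 fold change of the 10 claudins was 0.69 in spontaneous and 0.34 in treated tumors against control, beside 0.12 and 0.089 over all genes. With all 18 arrays, Cldn2, Cldn5 and Cldn10 were still called in both tumor groups and Cldn4 in treated tumors. Their values were then 3.30, -3.21 and -3.05 in spontaneous tumors (limma adjusted p up to 0.00957) and 4.23, -3.02, -3.79 and 2.45 in treated tumors (adjusted p up to 0.00622). Between the tumor groups, where none was called with either set, 4 differences changed sign, to 0.93 for Cldn2, 0.61 for Cldn3, 0.79 for Cldn7 and 1.28 for Cldn18.

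**Figure D1:**
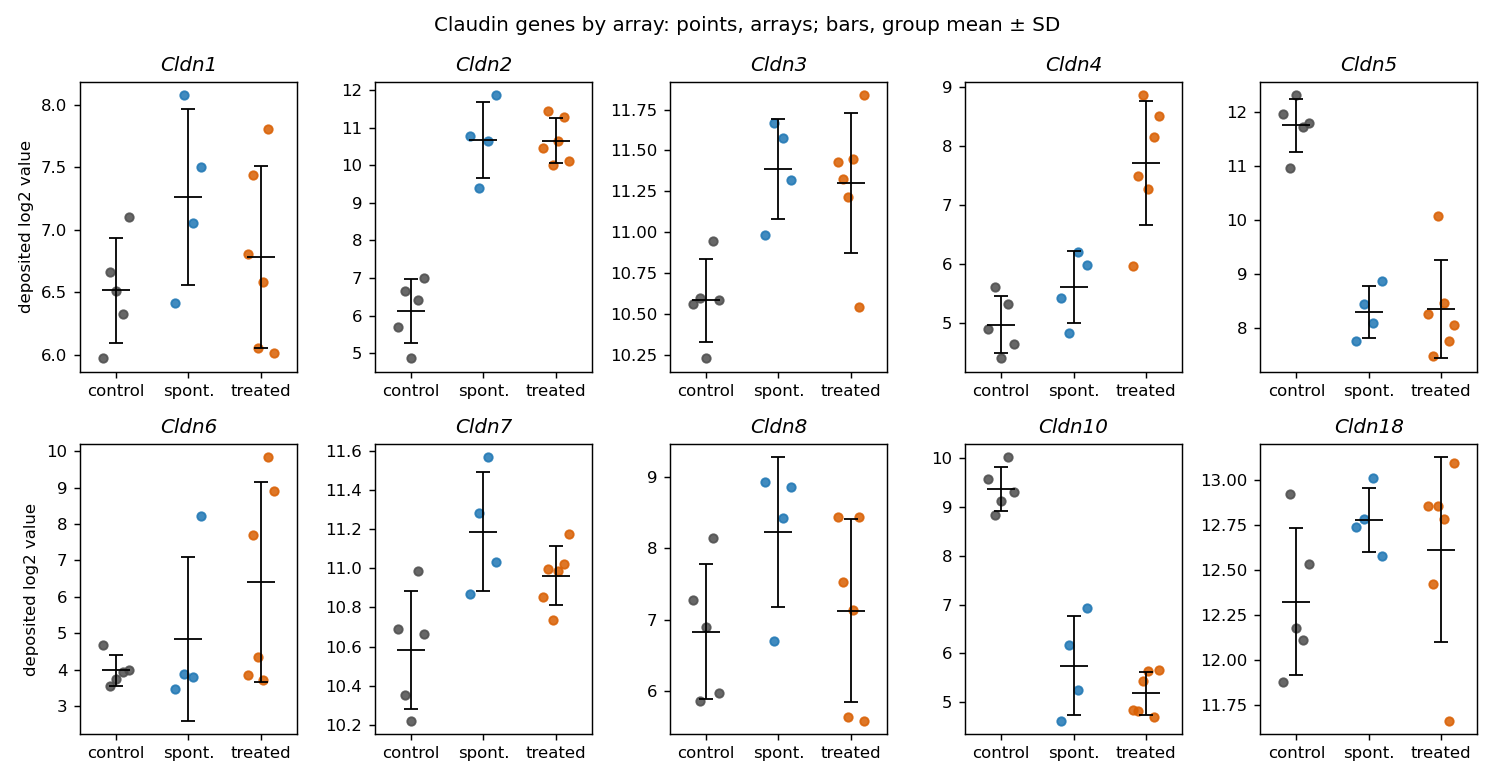
Deposited log2 value (vertical axes, each panel on its own scale) of 10 claudin genes on 15 arrays in 3 groups, with each point an array and bars for the group mean and SD. Cldn2 is high and Cldn5 and Cldn10 are low on every tumor array, and Cldn6 is high on 4 tumor arrays only.

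Claudin 2 forms channels for small cations and water and is typical of leaky epithelia such as the proximal tubule of the kidney. Its deposited log2 value was 5.68, 6.66, 4.86, 6.41 and 7.00 on the 5 control arrays. It was 10.77, 9.40, 10.65 and 11.87 on the 4 spontaneous tumor arrays, and 10.45, 11.45, 10.00, 10.66, 11.29 and 10.12 on the 6 treated tumor arrays. Every tumor array was thus above every control array. The log2 fold change was 4.55 ± 0.49 (SE) in spontaneous tumors, a 23.4-fold rise (limma adjusted p = 6.8e-06), and 4.54 ± 0.44 in treated tumors, a 23.2-fold rise (adjusted p = 1.7e-06). The tumor groups differed by -0.013, with a 95% interval from -1.01 to 0.99. A second, dimmer Cldn2 probe set gave smaller rises, 2.57 ± 0.38 in spontaneous and 2.59 ± 0.34 in treated tumors, again without overlap: it read 5.15 to 5.41 in control lung and 6.58 or more on every tumor array. The direction and the call were the same with both, but the size of the rise depends on the probe set.

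The 250 bases before the annotated start of Cldn2 are shown as the sequence next to the member with the largest rise (RefSeq, assembly GRCm38.p6, 5' to 3' on the gene's strand).
Cldn2, chrX:139800558-139800807 (+ strand): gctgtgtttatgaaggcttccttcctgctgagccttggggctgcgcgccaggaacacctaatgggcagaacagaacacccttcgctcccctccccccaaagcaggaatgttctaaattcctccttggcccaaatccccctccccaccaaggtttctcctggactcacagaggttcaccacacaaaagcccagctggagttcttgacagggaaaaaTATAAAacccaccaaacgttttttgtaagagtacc
Capitals here and below mark matches, on either strand, to 8 short motifs: AACCNGTT (grainyhead-like), TATAAA (the core promoter element, TATA box below), GGGCGG (SP1), TGANTCA (AP-1), CACCTG (the E-box of Snail and Zeb), CCGGAA (ETS), CAAGTG (NKX2-1) and TGTTTAC (forkhead). The Cldn2 window holds 1 TATA box, whose first letter lies 35 bases before the start. A TATA box was found in 12.4% of the 32851 annotated starts of mouse genes over the same window, and in 1 of the 12 annotated claudin starts, which belong to 9 of the 10 genes. A match is letters only and was not tested as a binding site.

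Claudin 10 also forms channels, for cations or anions depending on its splice form, and which form its single probe set reads is not known here. Its log2 value was 9.57, 8.84, 9.12, 10.02 and 9.30 in control lung. In spontaneous tumors it was 4.62, 6.17, 5.25 and 6.93, and in treated tumors 4.83, 4.82, 5.43, 5.64, 4.69 and 5.66. The highest tumor value lay well under the lowest control value. The fall was -3.63 ± 0.39 in spontaneous tumors (limma adjusted p = 7.1e-06) and -4.19 ± 0.35 in treated tumors (adjusted p = 4.1e-07), or 12.3-fold and 18.2-fold. The tumor groups differed by -0.56, with an interval from -1.36 to 0.24. The summed levels of ciliated and club cell markers were also lower in both tumor groups than in control lung. The summed level of 9 ciliated cell markers was 13.19 to 14.49 in control lung, 9.57 to 10.66 in spontaneous and 9.33 to 10.18 in treated tumors, and all 9 fell in each. That of 7 club cell markers was 16.03 to 16.45 in control lung, 12.40 to 14.95 in spontaneous tumors (3 of 7 fell, 0 rose) and 10.62 to 14.05 in treated tumors (6 of 7 fell, 0 rose). Within the tumor groups the order was only partly shared. Spontaneous tumor 1 had the lowest Cldn10 and the lowest club cell sum of its group, 4.62 and 12.40. Spontaneous tumor 2, with Cldn10 at 6.17, had the highest ciliated and club cell sums of that group, 10.66 and 14.95. Other arrays were ordered differently. Treated tumor 5, with the lowest Cldn10 of its group, had its highest ciliated and club cell sums, 10.18 and 14.05. Spontaneous tumor 4, with the highest Cldn10 of all tumors, had the lowest ciliated cell sum of its group, 9.57. The part of ciliated and club cells in the fall of Cldn10 was not tested. In bulk tissue, fewer cells of a type and less RNA per cell cannot be told apart.

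Claudin 5 seals the junctions of endothelial cells and is best known from the blood-brain barrier. Its log2 value was 11.96, 10.95, 12.31, 11.71 and 11.79 in control lung. It was 7.74, 8.43, 8.09 and 8.86 in spontaneous tumors, and 8.25, 7.48, 10.06, 8.45, 7.75 and 8.05 in treated tumors. All tumor arrays lay below all control arrays, and treated tumor 3 stood closest to them. The fold change in treated tumors was -3.40 ± 0.38 (limma adjusted p = 7.1e-06), and that between the tumor groups 0.057, with an interval from -0.81 to 0.92. In spontaneous tumors it was -3.46 ± 0.42 (adjusted p = 2.3e-05). Endothelial markers were lower on the same arrays: of 15, 12 fell in spontaneous and 15 in treated tumors, and 0 rose. Their summed level was 15.02 to 15.66 in control lung, 12.55 to 13.55 in spontaneous and 12.31 to 13.39 in treated tumors. Among tumors the order of the arrays was only partly shared. Treated tumor 3, with the highest Cldn5 of all tumors, had the highest endothelial sum of its group, 13.39. Spontaneous tumor 1 had the lowest Cldn5 and the lowest sum of its group, 7.74 and 12.55. Other arrays were ordered differently. Spontaneous tumor 2 had the highest sum, 13.55, with Cldn5 at 8.43, and spontaneous tumor 4, with Cldn5 at 8.86, had a sum of 12.70. Of the defining endothelial genes, Pecam1 was at -2.50 ± 0.31 and -2.91 ± 0.28 and Cdh5 at -2.46 ± 0.30 and -2.49 ± 0.27 in spontaneous and treated tumors. Their part in the fall of Cldn5 was not tested. The upstream window of Cldn5 is shown because it holds the only grainyhead-like match among the claudin starts, 20 bases before the start, a motif found in 1.79% of all starts.
Cldn5, chr16:18776597-18776846 (+ strand): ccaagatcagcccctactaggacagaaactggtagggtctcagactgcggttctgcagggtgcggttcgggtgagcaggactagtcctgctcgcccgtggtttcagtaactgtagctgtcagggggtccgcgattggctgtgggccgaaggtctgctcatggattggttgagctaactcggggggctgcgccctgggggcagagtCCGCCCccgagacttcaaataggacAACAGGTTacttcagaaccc

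**Figure D2:**
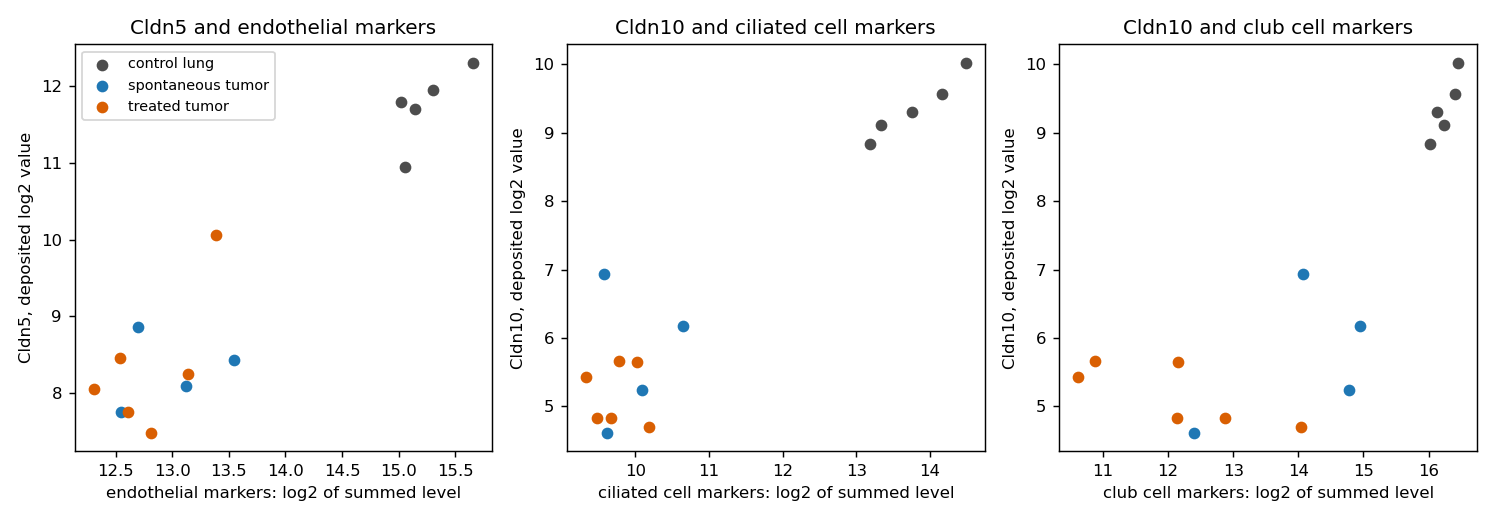
Deposited log2 value of Cldn5 or Cldn10 (vertical axes) against the log2 of the summed level of endothelial, ciliated or club cell markers (horizontal axes), with each point 1 of 15 arrays, coloured by group. Control lung lies at the upper right in each panel, with endothelial sums of 15.02 to 15.66, and the tumors at the lower left.

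Claudins 3 and 4 are sealing claudins of the alveolar epithelium, and both bind the enterotoxin of a Clostridium species. Their genes are neighbours on chromosome 5. Cldn3 had a log2 value of 10.56, 10.60, 10.23, 10.95 and 10.58 in control lung. It was 10.98, 11.67, 11.57 and 11.32 in spontaneous tumors, and 11.43, 11.33, 11.21, 11.45, 10.54 and 11.84 in treated tumors. Spontaneous tumors lay above all controls, whereas treated tumor 5 lay among them. The rise was 0.80 ± 0.22 in spontaneous tumors (limma adjusted p = 0.0116) and 0.72 ± 0.20 in treated tumors (adjusted p = 0.0101), or 1.74-fold and 1.64-fold. The 3 other Cldn3 probe sets rose as well, by 0.87 to 1.14 in spontaneous and 0.77 to 0.99 in treated tumors. With all 18 arrays Cldn3 was not called, at 0.50 (adjusted p = 0.773) and 1.10 (adjusted p = 0.27).

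Cldn4 separated the tumor groups more than any other of the 10 claudins by unadjusted p. Its log2 value was 4.91, 5.61, 4.40, 5.33 and 4.64 in control lung, and 5.42, 4.83, 6.21 and 5.99 in spontaneous tumors. In treated tumors it was 5.97, 7.49, 8.87, 7.28, 8.16 and 8.52. Spontaneous tumors overlapped control lung, all 6 treated tumors lay above it, and 5 of the 6 lay above every spontaneous tumor, with treated tumor 1 the exception. In treated tumors Cldn4 rose by 2.73 ± 0.43, or 6.65-fold (limma adjusted p = 0.000161), and in spontaneous tumors it was at 0.63 ± 0.48 (adjusted p = 0.338). The difference between the tumor groups was 2.10 ± 0.46, with a 95% interval from 1.11 to 3.09 and an unadjusted limma p of 0.000391. It did not pass over all genes (adjusted p = 0.167). Without treated tumor 1 it was 2.45 (adjusted p = 0.0181); without any other single array the adjusted p was 0.151 to 0.509. Of 14 markers of gastric and intestinal epithelium measured, 4 rose in treated tumors against control, where 23.8% of all genes rose. In spontaneous tumors 0 were called by limma, with 0 at an unadjusted p under 0.05, where 33.0% of all genes were called. Those that rose in treated tumors were Gkn2 at 5.07 ± 1.22, Vil1 at 2.03 ± 0.55, Anxa10 at 0.71 and Muc5ac at 0.57. The summed level of all 14 was 11.12 to 11.35 in control lung, 11.12 to 11.49 in spontaneous and 11.20 to 13.36 in treated tumors. Treated tumor 1, with the lowest Cldn4 of its group, had 11.20, the lowest sum of its group. The highest sum, 13.36, was that of treated tumor 5, with Cldn4 at 8.16, whereas treated tumor 3, with the highest Cldn4, had 12.14. Their part in the rise of Cldn4 was not tested.

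The windows upstream of both starts are shown because the genes are neighbours with rises of 0.72 and 2.73 in treated tumors, a difference that was not tested.
Cldn3, chr5:134985964-134986213 (+ strand): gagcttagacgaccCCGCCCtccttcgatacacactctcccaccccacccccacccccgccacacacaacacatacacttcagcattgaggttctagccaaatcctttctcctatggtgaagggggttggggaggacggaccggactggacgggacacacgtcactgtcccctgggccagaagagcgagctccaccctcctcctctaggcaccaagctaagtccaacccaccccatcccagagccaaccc
Cldn4, chr5:134946935-134947184 (- strand): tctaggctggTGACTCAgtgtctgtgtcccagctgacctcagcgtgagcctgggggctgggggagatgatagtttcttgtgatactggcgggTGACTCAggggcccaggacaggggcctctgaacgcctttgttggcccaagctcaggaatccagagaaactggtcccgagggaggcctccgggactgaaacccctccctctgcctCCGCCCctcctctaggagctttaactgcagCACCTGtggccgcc
The Cldn4 window holds 2 AP-1 matches, at 240 and 158 bases before the start, 1 SP1 match at 44 and 1 E-box of Snail and Zeb at 14. At least 1 AP-1 match was found in 6.75% of all starts and in 1 of the 12 claudin starts, an SP1 match in 32.7% and 7 of 12, and the E-box in 17.2% and 3 of 12. The Cldn3 window holds a single SP1 match, 236 bases before the start, and no 2 matches overlap in the windows printed here.

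Claudin 7 is a sealing claudin that also lies on the sides of epithelial cells, where it binds the adhesion protein EpCAM. Cldn7 was 10.69, 10.35, 10.22, 10.98 and 10.66 in control lung. It was 10.87, 11.28, 11.57 and 11.03 in spontaneous tumors, and lowest 10.73, median 10.99 and highest 11.18 in treated tumors. Both tumor groups overlapped control lung through control lung 4, the highest control. The rise in spontaneous tumors was 0.61 ± 0.17, or 1.52-fold (limma adjusted p = 0.0117), and the value in treated tumors 0.38 ± 0.15 (adjusted p = 0.0582). The treated tumor value passed the threshold in some alternatives, for example at 0.46 with median centring (adjusted p = 0.0222). With all 18 arrays the value in spontaneous tumors was -0.032 (adjusted p = 0.988). Epcam rose by 1.13 ± 0.17 in spontaneous and 1.54 ± 0.15 in treated tumors.

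Claudin 18 has a lung and a stomach form made from separate starts, and its lung form is a main claudin of alveolar cells. Cldn18 was 11.88, 12.92, 12.18, 12.11 and 12.54 in control lung. It was 12.74, 12.79, 13.01 and 12.58 in spontaneous tumors, and 12.86, 12.43, 12.86, 12.78, 11.66 and 13.10 in treated tumors. The groups overlapped, and treated tumor 5, which was also lowest of its group in Cldn3, lay below every control. Cldn18 was at 0.46 ± 0.26 in spontaneous tumors, with an interval from -0.098 to 1.01, and at 0.29 ± 0.23 in treated tumors, with an interval from -0.21 to 0.79 (limma adjusted p = 0.197 and 0.361). A second probe set gave 0.71 ± 0.38 and 0.37 ± 0.34. With all 18 arrays Cldn18 was at 0.058 in spontaneous and 1.33 in treated tumors, again not called (limma adjusted p = 0.988 and 0.559). The files do not state which start either probe set reads. Around the alveolar epithelium, 7 of 10 type 1 cell markers fell and 8 of 10 type 2 cell markers rose in each tumor group. Over all genes, 12.9% fell and 20.1% rose in spontaneous tumors, and 15% fell and 23.8% rose in treated tumors. The type 2 markers Sftpc, at -0.012 and 0.023 in spontaneous and treated tumors, and Lyz2, at 0.14 and -0.13, were not called. Nor were the type 1 markers Pdpn, at -0.60 and -1.10, and Aqp5, at 0.47 and 0.13. Akap5 in spontaneous and Ager in treated tumors were not called either.

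Claudin 6 belongs to embryonic epithelia and is low in most adult tissues. Cldn6 was 4.66, 3.55, 3.73, 3.94 and 3.98 in control lung. It was 3.48, 3.89, 3.81 and 8.22 in spontaneous tumors, and 3.86, 7.71, 4.34, 3.71, 9.84 and 8.92 in treated tumors. Thus spontaneous tumor 4 and treated tumors 2, 5 and 6 lay far above every control, and the other 6 tumor arrays read between 3.48 and 4.34, within or near the control values. With such a spread, SD 2.25 in spontaneous and 2.75 in treated tumors against 0.42 in control lung, the mean did not pass the test (0.87 ± 1.27 and 2.42 ± 1.15, limma adjusted p = 0.635 and 0.110). Without spontaneous tumor 4 the value in spontaneous tumors was -0.25 (adjusted p = 0.901). The neighbouring gene Cldn9 read 5.09 to 5.64 on all tumor arrays and 4.79 to 5.49 in control lung, so it did not follow this pattern. Its second, dimmer probe set was highest on treated tumors 5 and 6, at 3.95 and 3.71, against 2.41 to 2.86 in control lung.

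Claudin 1 is essential for the barrier of the skin, and claudin 8 is a claudin of the distal nephron and colon. Cldn1 was 5.97 to 7.10 in control lung, 6.41 to 8.08 in spontaneous tumors and, over 6 arrays, lowest 6.02, median 6.69 and highest 7.81 in treated tumors. It was at 0.75 ± 0.39 in spontaneous and 0.27 ± 0.35 in treated tumors (limma adjusted p = 0.154 and 0.584). With all 18 arrays the value in treated tumors was -0.0034 (adjusted p = 0.996). Its second probe set gave 1.14 ± 0.40 in spontaneous tumors, with adjusted p = 0.0397 when all 34945 probe sets were fitted singly, and 0.31 ± 0.36 in treated tumors. The 2 dimmest Cldn1 probe sets read between 1.68 and 2.48 on all 15 arrays and gave 0.11 to 0.27. Cldn8 was 7.28, 5.86, 6.90, 8.14 and 5.97 in control lung, 8.94, 6.69, 8.42 and 8.86 in spontaneous tumors, and 5.58 to 8.44 in treated tumors. It was at 1.40 ± 0.68 in spontaneous and 0.30 ± 0.61 in treated tumors (adjusted p = 0.127 and 0.741). Spontaneous tumor 2 was low among its group, and without it the value was 1.91 (adjusted p = 0.0464). Neither gene was called, and all 3 groups overlapped.

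**Figure D3:**
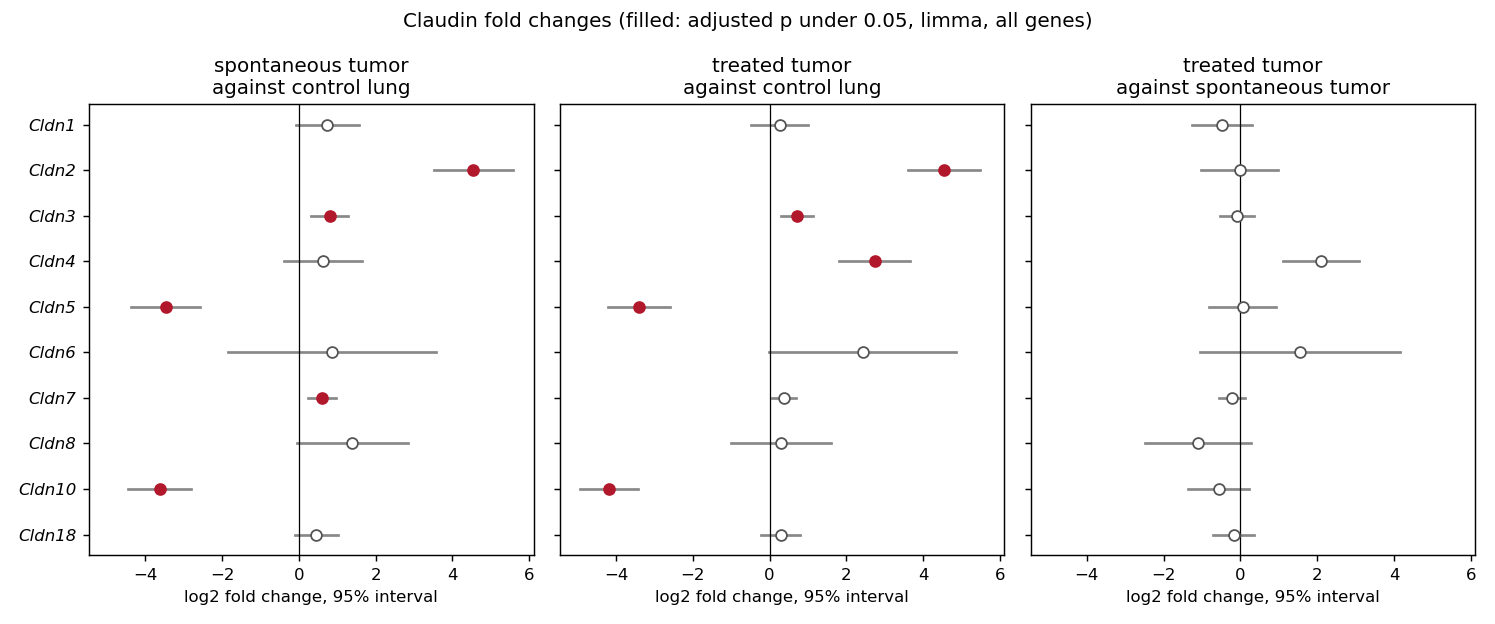
Log2 fold change with its 95% interval (horizontal axes) of 10 claudin genes in 3 comparisons, filled where the limma adjusted p over all genes was under 0.05. Cldn2 lies at 4.55 and 4.54, Cldn5 and Cldn10 lie between -3.40 and -4.19 in both tumor comparisons, and no point is filled between the tumor groups.

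**Figure D4:**
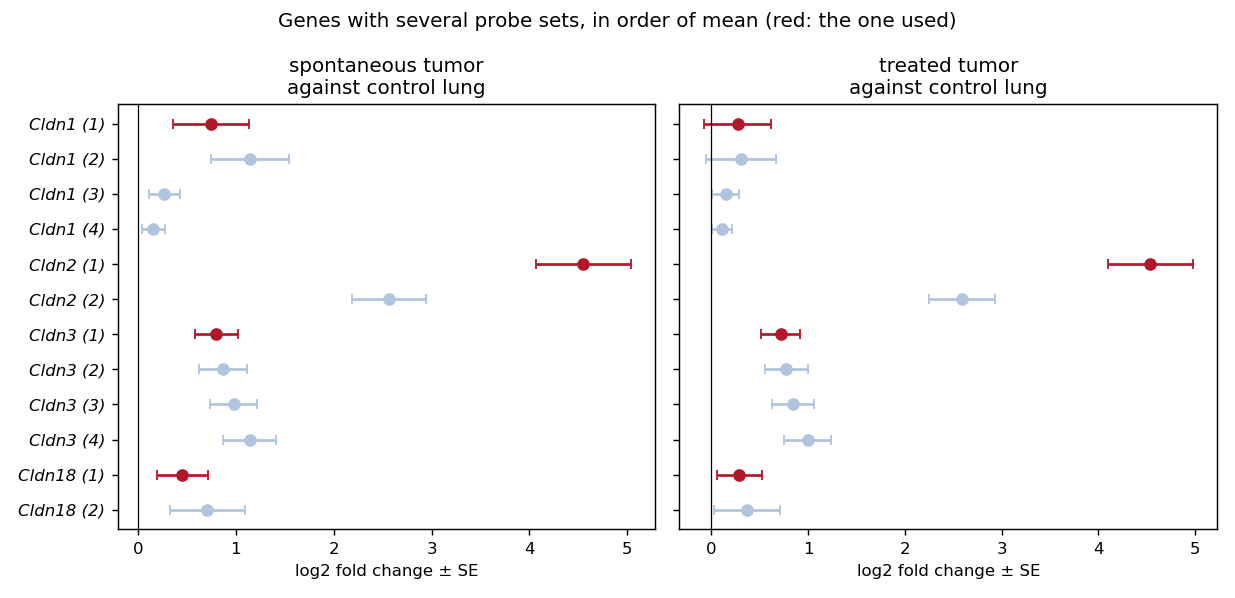
Log2 fold change ± SE (horizontal axes) of each probe set of the 4 claudins with several, in order of mean, with the one used in red. The 2 Cldn2 probe sets rise by 4.55 and 2.57 in spontaneous tumors, and the 4 Cldn3 probe sets by 0.80 to 1.14.

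The claudins did not rank the tumors alike. Treated tumor 5 had the highest Cldn1 and Cldn6 of its group and the lowest Cldn3, Cldn10 and Cldn18. Treated tumor 6 had the highest Cldn3, Cldn7, Cldn10 and Cldn18 and the lowest Cldn1 and Cldn8. Treated tumor 3 combined the highest Cldn4 and Cldn5 with the lowest Cldn2 and Cldn7. Spontaneous tumor 2 had the highest Cldn1 and Cldn3 of its group and the lowest Cldn2, Cldn4 and Cldn8.

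Likeness to other genes was described for the 6 claudins whose SD over the 15 arrays exceeded 1 log2 unit, as the Pearson correlation over all 15 arrays. These values take in the group differences, so they are given without a test. Most like Cldn2 were Bcl2l15 (r = 0.98), Syngr1 (0.97) and Prdx3 (0.97). Cldn5 was most like Kit, a receptor tyrosine kinase (0.97), Wscd1 (0.97) and Akap2 (0.97). Cldn10 was most like Acsf2 (0.97), Dnah9, a dynein heavy chain of motile cilia (0.97), and Actc1, the cardiac alpha-actin (0.97). For Cldn4 the nearest were Slc23a3 (0.93), Xpc, a damage sensor of nucleotide excision repair (0.92), and Mboat1 (0.91). Cldn6 was nearest to Nrip2 (0.96), Habp2 (0.91) and Spp2 (0.89), and Cldn8 to Zfp784 (0.83), Map3k5 (0.81) and Tmem53 (0.80).

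Among 14 further claudin genes measured, 2 fell and 0 rose in each tumor group. Over all genes, 12.9% fell and 20.1% rose in spontaneous tumors, and 15% fell and 23.8% rose in treated tumors. Whether the 14 genes differ from all genes in these shares was not tested. Cldn23 was 5.40, 6.47, 6.24, 5.88 and 5.65 in control lung, 2.95, 5.28, 4.67 and 3.12 in spontaneous and 2.97 to 5.06 in treated tumors, without overlap. The log2 fold change was -1.92 ± 0.48 in spontaneous tumors (limma adjusted p = 0.00611) and -2.26 ± 0.43 in treated tumors (adjusted p = 0.000702). Cldn34c1 fell as well, at -1.81 ± 0.44 and -1.13 ± 0.40 (adjusted p = 0.00579 and 0.036), but its second probe set, at -0.65 ± 0.35 and -0.57 ± 0.31, was not called. In treated tumors 2 of the 14 were called in 8 of the 15 fits that left out a single array, and 1 in the others. Over the 14 genes the calls in spontaneous tumors changed with the scaling, to 3 higher and 2 lower with quantile normalization and 2 higher and 2 lower with median centring. The second probe set gave 1 lower. Of the 14 genes, 0 were called in spontaneous and 1, lower, in treated tumors with all 18 arrays. In treated tumors 1 was also called with quantile normalization, the mean or the second probe set, or the Y-linked covariate.

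Tight junctions also hold other membrane proteins, and scaffold and polarity proteins beneath the membrane. Of 31 such genes measured, 10 rose and 2 fell in spontaneous tumors, and 10 rose and 4 fell in treated tumors. Thus 12 and 14 of the 31 were called, where 33.0% and 38.8% of all genes were called. Whether these shares differ from those of all genes was not tested. The medians were 0.13 and 0.12 beside 0.12 and 0.089 over all genes. Only 1 of the 31 was called in spontaneous and 2 in treated tumors with all 18 arrays, and with the mean of Y-linked genes as a covariate 7 in treated tumors, so the rises and falls named next are those of the 15 arrays without covariates. Among the membrane proteins, Igsf5 rose by 1.69 ± 0.20 and 1.75 ± 0.18 in spontaneous and treated tumors, and Marveld3, a relative of occludin, by 1.33 ± 0.17 and 1.27 ± 0.15. Lsr and Ildr1, proteins of tricellular corners, rose by 0.95 ± 0.17 and 1.25 ± 0.20 in spontaneous tumors and by 0.61 ± 0.15 and 0.65 ± 0.18 in treated tumors. Occludin, Ocln, was not called, at 0.16 ± 0.23 and 0.53 ± 0.21 (limma adjusted p = 0.632 and 0.0558). Of the scaffolds, Tjp3 rose by 0.65 ± 0.19 and 0.64 ± 0.17, whereas Tjp1, the scaffold ZO-1 that binds claudin tails, fell, at -0.50 ± 0.11 and -0.60 ± 0.10. Mpdz, a scaffold with many PDZ domains, fell most, at -2.15 ± 0.29 and -2.39 ± 0.26. The polarity genes Crb3 and Pard3 rose, by 0.77 ± 0.18 and 0.73 ± 0.22 in spontaneous and 0.86 ± 0.16 and 0.77 ± 0.20 in treated tumors. The adhesion proteins Jam2 and Esam fell in treated tumors, at -1.11 ± 0.34 and -0.68 ± 0.23. Esam is also among the endothelial markers counted above. Between the tumor groups 0 of the 31 were called by limma, with 4 at an unadjusted p under 0.05.

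**Figure D5:**
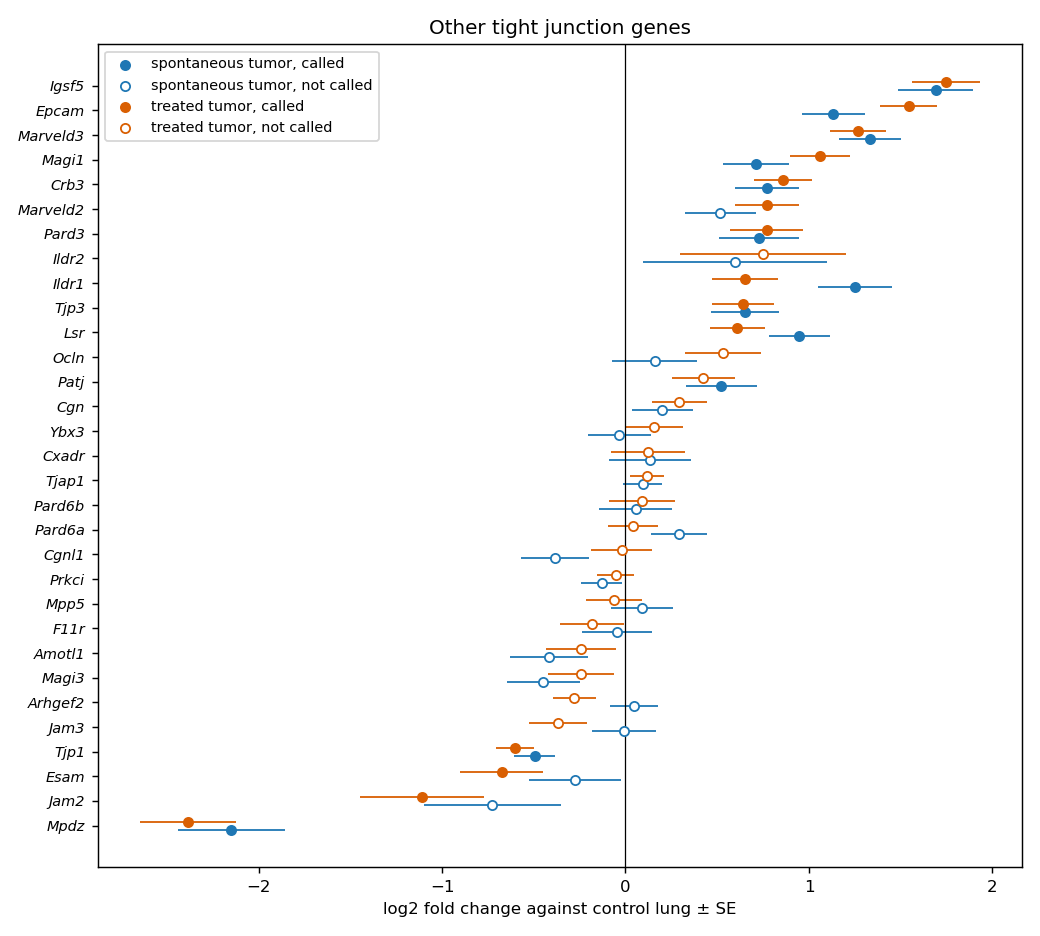
Log2 fold change against control lung ± SE (horizontal axis) of 31 other tight junction genes in spontaneous (blue) and treated (orange) tumors, filled where called by limma over all genes. Igsf5, Epcam and Marveld3 lie furthest to the right in treated tumors, and Igsf5, Marveld3 and Ildr1 in spontaneous tumors. Mpdz, at -2.15 and -2.39, lies furthest to the left.

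Of 23 transcription factors described as regulators of claudins or epithelial junctions, 7 rose and 7 fell in spontaneous tumors, and 9 rose and 8 fell in treated tumors. Thus 14 and 17 of the 23 were called, where 33.0% and 38.8% of all genes were called. Whether these shares differ was not tested. Sox17, which fell in both tumor groups, is also among the endothelial markers counted above. Grhl2 and Ehf, activators of epithelial genes, rose by 0.87 ± 0.14 and 1.31 ± 0.21 in spontaneous and 1.13 ± 0.13 and 1.29 ± 0.19 in treated tumors. In contrast, Klf4 of the same list fell, at -1.90 ± 0.30 and -1.44 ± 0.27 in spontaneous and treated tumors. Twist1, dim at a mean of 3.22 in control lung, rose by 0.39 ± 0.13 and 0.36 ± 0.12, unlike the repressors named next. The repressors Zeb1, Zeb2 and Snai2, which are also expressed by stromal cells, were at -2.43 ± 0.26, -1.68 ± 0.35 and -1.16 ± 0.23 in spontaneous tumors. Fibroblast and smooth muscle markers were lower on the same arrays, with 7 of 11 falling in each tumor group and 0 rising in spontaneous and 1 in treated tumors. Of 14 genes of other epithelial junctions and keratins, 4 rose and 2 fell in spontaneous tumors, and 5 rose and 1 fell in treated tumors. Thus 6 of the 14 were called in each tumor group, where 33.0% and 38.8% of all genes were called. Cdh1, E-cadherin of the adherens junction, was at -0.12 ± 0.12 and -0.22 ± 0.11 and was not called, and Nectin2, an adhesion protein of the same junction, rose by 2.12 ± 0.16 and 1.75 ± 0.14.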

How the data were processed

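Total RNA was measured on Affymetrix mouse arrays. The values are log2 expression values deposited by the authors, made with RMA per the submitters' processing notes, whose version is not given in the sources used here. They have no detection calls, and the number of arrays limits precision. Symbols came from the platform annotation: 34945 probe sets had 1 symbol, 932 several and 9160 none. Groups follow the sample titles. A model with 3 group means was fitted to 18193 genes on 15 arrays with limma 3.58.1 in R 4.3.3, without covariates, after a test on simulated data. The ORIOGEN test named in the series' design was not run here. The genes named are the claudins, genes of the listed tight junction, adhesion, regulator and marker lists, and the 3 likest genes of each claudin with an SD above 1. Members and lists were chosen with earlier results of these data known. Replicate numbers are shared by the groups, but of 13 pairs of same-numbered arrays only 2 had deviations from their group means that correlated over 0.1, so they were not treated as pairs. Alternatives varied arrays, normalization, dim genes, probe set choice, variance model, covariates and threshold. Promoter sequences are RefSeq's.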

Additional observations from a re-analysis of the deposited data

Results flagged for a closer look

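Cldn6 in spontaneous tumor 4, at a log2 value of 8.22, lay far from the other 3 spontaneous tumors, which read 3.48 to 3.89. The gap took up 0.914 of the group's whole range. Such a gap was looked for in 30 combinations of a claudin and a group, and chance gives about 1 in 20. Of the 30, only this 1 was flagged, a share no higher than chance gives. The check takes a single array apart from the rest of its group. It did not flag Cldn6 in treated tumors, where treated tumors 2, 5 and 6 read 7.71, 9.84 and 8.92.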

How the results depend on the processing

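In spontaneous tumors against control the count of called claudins was 5; it was 3 with all 18 arrays and 3 when a change of at least 2-fold was also required. Of the 31 tight junction genes, 12 were called there, against 1 with all 18 arrays and 5 at 2-fold or more. In treated tumors against control 14 were called, against 2 with all 18 arrays, 7 with the mean of Y-linked genes as a covariate and 6 at 2-fold or more. With 1 array left out at a time, the claudin counts were 5 to 6, 5 to 6 and 0 to 1 in spontaneous against control, treated against control and treated against spontaneous tumors, and the tight junction counts 10 to 13, 13 to 17 and 0 to 0. The 1 came without treated tumor 1. Cldn7 changed sign in spontaneous tumors with all 18 arrays (-0.032). Over all genes, 6012 were called in spontaneous and 7065 in treated tumors against control, and 746 and 1353 with all 18 arrays, 2421 and 2589 at 2-fold or more. Leaving out genes dimmer than the median, which kept 5 of the 10 claudins, gave 4004 and 4658, and the Y-linked covariate gave 4344 in treated tumors. Between the tumor groups 10 genes were called, and 0 to 28 with 1 array left out. The replicate block gave 5, 5 and 0 called claudins and 11, 14 and 0 tight junction genes, and 1 higher and 3 lower of the 14 further claudins in spontaneous tumors. Apart from single arrays left out, 353 claudin fold changes kept direction and side of the threshold. A further 14, not called in either fit, changed sign. In 5 cases one newly passed, and in 2, both Cldn3 with all 18 arrays, it no longer did. Fitting every probe set singly was added after the data were seen.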
